A study of Homo sapiens with 18 samples.

Results

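The integrin and focal adhesion genes are 44 genes that cells use to hold on to the extracellular matrix and to pull against it: 10 integrin alpha subunits, 5 integrin beta subunits and 29 genes of the cytoplasmic plaque beneath them. They were taken by name from the deposited table, where they account for 492 of 145326 transcripts and for 44 of 32490 gene names, and the values of all transcripts of a name were summed. RNA was sequenced from spheroidal aggregates of U87 mg, an established glioblastoma cell line, and of DAOY, an established line from a desmoplastic cerebellar medulloblastoma. The aggregates lay in growth-factor-reduced Matrigel mixed with culture medium and had gelled in electrotaxis channels before a direct current electrical field (dcEF) of 250 V/m was applied for 0, 2 or 8 h, with 3 samples for each line and time. The comparisons ask how the adhesion genes of each line change with the field and how the adhesion genes of both lines differ without it. The 0 h samples never met the field, each sample pooled the channels of technical replicates, and no aggregates were held in the channel for 2 or 8 h without a field, so that field and time in the channel cannot be told apart. In such bulk samples, fewer cells of a type and less RNA per cell cannot be told apart either.

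An integrin is a heterodimer of an alpha and a beta chain that spans the plasma membrane. Its outer part binds collagen, laminin, fibronectin or other ligands according to the pairing of the chains, and talin and kindlin bind the beta tail from the inside to switch the receptor to its active state. Clustered integrins gather a plaque of kinases (focal adhesion kinase, SRC), docking proteins (paxillin, p130Cas, the CRK adaptors) and actin linkers (vinculin, alpha-actinin, filamin, zyxin), through which a migrating cell exerts traction. Matrigel is a basement membrane extract rich in laminin and collagen IV, which are ligands of several of these receptors.

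The libraries held 8341976 to 15610886 estimated counts each, of which the adhesion genes took 0.69 to 1.19%. Of 7 glial markers, VIM was high and CHI3L1 was present in U87 mg while OLIG2, S100B and SOX2 averaged below 1 TPM (a transcript level corrected for its length and for the size of the library), and of 8 markers of SHH medulloblastoma or granule lineage that the table held, PTCH1, ZIC1 and SFRP1 were present in DAOY while BARHL1, NEUROD1 and GLI1 averaged below 1 TPM. The lists did not separate the lines cleanly. The 7 glial markers summed to 4102.1 to 5507.6 TPM in U87 mg and to 1726.6 to 2983.5 TPM in DAOY. At 0 h 5 of them were tested in edgeR, and 3 were lower and 1 higher in DAOY. VIM was lower by a log2 fold change of only -1.06, and SOX2 read 3.29 to 5.46 TPM in DAOY and at most 0.055 TPM in U87 mg. Of 6 medulloblastoma markers tested 3 were higher and 2 lower in DAOY. The lower ones were GLI2 (log2 fold change -2.12, adjusted p = 8.71e-06 in edgeR) and GLI1 (-2.32, adjusted p = 0.0162). ZIC1 did not pass between the lines (0.48, adjusted p = 0.0879). Markers of other cells were low where they define the cell: PTPRC and ITGB2 averaged below 1 TPM in both lines, as did the endothelial CDH5. The summed level of the 3 leukocyte markers nevertheless ranged from 247.6 to 602.5 TPM in U87 mg and from 12.5 to 44.9 TPM in DAOY through CD68, a lysosomal protein, and that of the 3 endothelial markers from 2.3 to 4.4 and from 5.8 to 13.3 TPM. The part of these levels in the differences between the lines was not tested. Some samples held the lowest value of their group in more adhesion genes than genes in general did, among them the 0 h samples numbered 0 of both lines and the DAOY 8 h sample numbered 1, and the calls that turn on these samples are given with and without them.

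The integrin repertoire of unexposed aggregates differed widely between the lines. DAOY carried more ITGA1, ITGA11, ITGA4, ITGA6, ITGAV, ITGB4 and ITGB8, and U87 mg carried more ITGA2, ITGA3, ITGA5, ITGA7, ITGB1 and ITGB3. By an edgeR quasi-likelihood F-test, with p adjusted after Benjamini and Hochberg over every gene tested, 32 of the 44 adhesion genes (72.7%) passed an FDR of 0.05 between the lines at 0 h, 11 higher and 21 lower in DAOY. The background was large: 60.7% of the 16482 genes tested passed, 32.8% higher and 27.9% lower. The share of all adhesion genes is thus read against a share nearly as high, and the split toward lower values in DAOY against one that was close to even. With a log2 fold change of 1 or more in size as well, 8 were higher and 18 lower in DAOY, against 23.4% and 17.8% of all genes. The median log2 fold change, DAOY over U87 mg, was -0.39 over the adhesion genes and 0.05 over all genes tested.

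**Figure D1:**
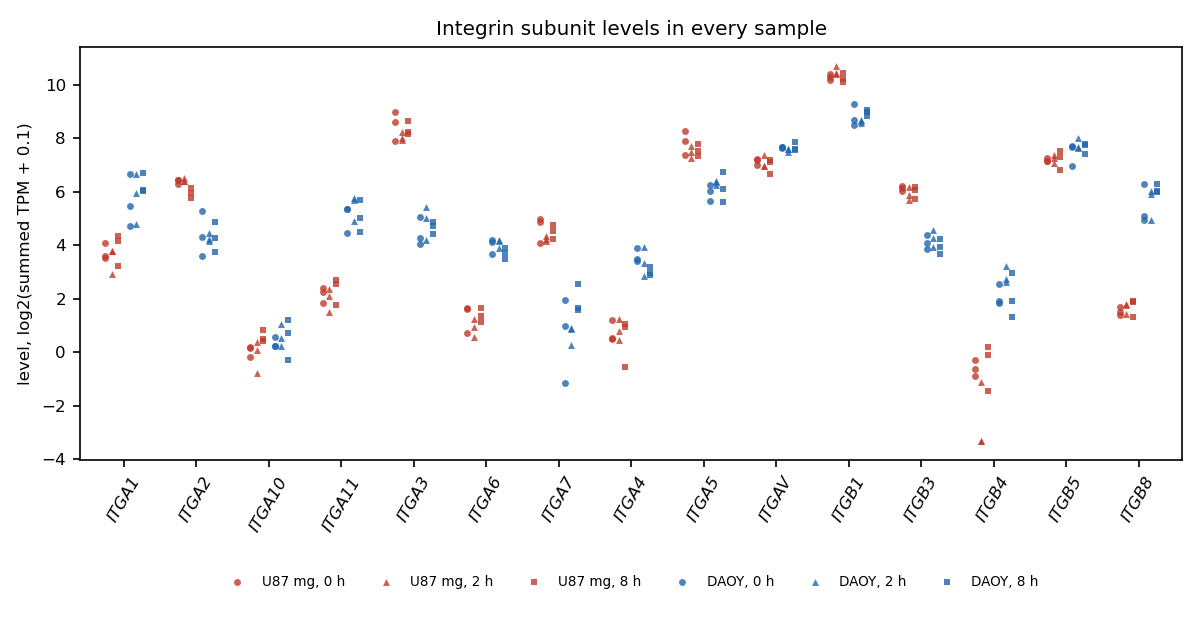
Levels of the 15 integrin subunits in all 18 samples, as log2 of the summed TPM plus 0.1 (vertical axis), grouped by binding preference (horizontal axis); red points are U87 mg, blue points DAOY, and circles, triangles and squares are 0, 2 and 8 h. The lines stand apart in ITGA3, ITGA6, ITGA11 and ITGB8 at every time, and in these genes the times of a line lie closer together than the lines do. Samples of a line spread widely in ITGA1 and ITGA7 in DAOY and in ITGB4 in U87 mg.

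Among the collagen-binding alpha subunits, 3 of 4 differed. ITGA11, a fibrillar collagen receptor of mesenchymal cells, stood at 3.46, 5.13 and 4.67 TPM in the U87 mg samples and at 21.8, 41.2 and 41.0 TPM in the DAOY samples. No U87 mg sample came near the lowest DAOY sample, and the log2 fold change was 3.08 ± 0.24 (SE, n = 3 per group, adjusted p = 7.59e-09 in edgeR, Benjamini-Hochberg). ITGA1, which prefers collagen IV, read 11.3, 17.0 and 12 TPM in U87 mg and 100.7, 43.8 and 26.1 TPM in DAOY (log2 fold change 2.29 ± 0.46, adjusted p = 0.00037). The DAOY samples of ITGA1 were themselves spread widely. Its protein-coding transcript held 44.3% of its DAOY TPM, the rest lying in short non-coding ones. The same transcript held 93.0% of its DAOY estimated counts, and the fold change was fitted on counts. ITGA2, which prefers fibrillar collagen, went the other way, with 86.3, 85.9 and 78.7 TPM in U87 mg and 38.5, 12.1 and 19.9 TPM in DAOY (log2 fold change -1.86 ± 0.33, adjusted p = 9.02e-05). ITGA10 was near 1 TPM in both lines and did not pass (log2 fold change 0.46 ± 0.33, adjusted p = 0.238).

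The laminin-binding subunits split between the lines. ITGA3, which with ITGB1 binds laminin-332 and laminin-511, read 239.5, 386.5 and 506.8 TPM in U87 mg and 19.0, 16.2 and 33.4 TPM in DAOY, a log2 fold change of -4.37 ± 0.30 (adjusted p = 1.62e-09 in edgeR, Benjamini-Hochberg). ITGA7, a laminin receptor best known from muscle, read 17.0, 28.8 and 31.6 TPM in U87 mg and 0.35, 3.79 and 1.86 TPM in DAOY (log2 fold change -4.90 ± 0.35, adjusted p = 2.64e-09). Its DAOY level rested on 6 to 26 estimated counts per 0 h sample. Protein-coding transcripts of ITGA7 held 51.2% of its TPM in U87 mg and 31.6% in DAOY, but 80.7% and 69.9% of its estimated counts. ITGA6, the partner of ITGB1 and ITGB4 in laminin binding, was low in U87 mg at 3.07, 1.55 and 2.93 TPM and higher in DAOY at 18.1, 12.7 and 17.5 TPM (log2 fold change 3.38 ± 0.28, adjusted p = 1.3e-08). U87 mg aggregates thus held most of their laminin-binding alpha transcripts as ITGA3, and in DAOY aggregates ITGA3 and ITGA6 lay close together in TPM.

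All 3 alpha subunits that bind fibronectin or RGD-containing ligands differed. ITGA5, the classical fibronectin receptor chain, read 164.4, 238.6 and 306.2 TPM in U87 mg and 49.7, 65.6 and 75.8 TPM in DAOY (log2 fold change -2.05 ± 0.28, adjusted p = 8.15e-06 in edgeR, Benjamini-Hochberg). ITGAV, the alpha chain of the vitronectin receptors, read 147.5, 148.5 and 128.9 TPM in U87 mg and 200.8, 204.7 and 205.5 TPM in DAOY. The difference in ITGAV was small, at a log2 fold change of 0.71 ± 0.17 (adjusted p = 0.00164), but the ranges did not overlap. ITGA4, which binds VCAM1 and fibronectin, read 2.22, 1.34 and 1.29 TPM in U87 mg and 10.6, 11.1 and 14.8 TPM in DAOY (log2 fold change 2.89 ± 0.35, adjusted p = 1.55e-06). Counted over protein-coding transcripts alone at 0 h, ITGA5 and ITGA3 made up 34.3% and 33.9% of the summed TPM of the 10 alpha subunits in U87 mg, and ITGAV alone made up 49.2% in DAOY, followed by ITGA5 at 16.3% and ITGA11 at 10.1%.

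Of the 5 beta subunits 4 differed. ITGB1, the chain shared by most of the alpha subunits above, read 1256, 1166 and 1356 TPM in U87 mg and 628.6, 361.0 and 410.0 TPM in DAOY (log2 fold change -1.63 ± 0.18, adjusted p = 5.62e-07 in edgeR, Benjamini-Hochberg). It was the most abundant beta chain in both lines, with 90.8% of the protein-coding beta TPM in U87 mg and 74.6% in DAOY. ITGB3, which pairs with ITGAV, read 70.4, 74.2 and 66.0 TPM in U87 mg and 14.3, 16.7 and 20.6 TPM in DAOY (log2 fold change -2.16 ± 0.20, adjusted p = 7.4e-08). ITGB8, another partner of ITGAV and known for presenting latent TGF-beta, was lower in U87 mg, at 2.50, 3.15 and 2.70 TPM against 77.5, 33.9 and 31.0 TPM in DAOY (log2 fold change 4.12 ± 0.40, adjusted p = 1.06e-07). The protein-coding TPM of the ITGAV partners was therefore unlike. ITGB3 and ITGB5 held 5.86% and 3.09% of the protein-coding beta TPM in U87 mg. ITGB5, ITGB8 and ITGB3 held 12.7%, 9.12% and 3.28% of it in DAOY. Over all transcripts the order of ITGB3 and ITGB5 in U87 mg was reversed, at means of 70.2 and 146.7 TPM at 0 h. ITGB5, a vitronectin receptor chain, did not pass as a whole gene (log2 fold change 0.19 ± 0.20, adjusted p = 0.406 in edgeR). Its protein-coding transcripts held 24.6% of its TPM in U87 mg and 33.0% in DAOY, but 75.1% and 78.2% of its estimated counts.

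ITGB4, the chain that anchors epithelial cells in hemidesmosomes, was almost absent from U87 mg. Its 9 U87 mg samples held 0 to 4 estimated counts each, and it was left out of the U87 mg fit by the filter on low counts. At 0 h the DAOY samples held 47, 72 and 48 counts (3.44, 5.73 and 3.64 TPM). Summed over the 3 samples and scaled to the library totals, 167 counts in DAOY against 8 in U87 mg gave a ratio of 26.5 (exact 95% interval 13.1 to 62.4, covering counting error only).

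**Figure D2:**
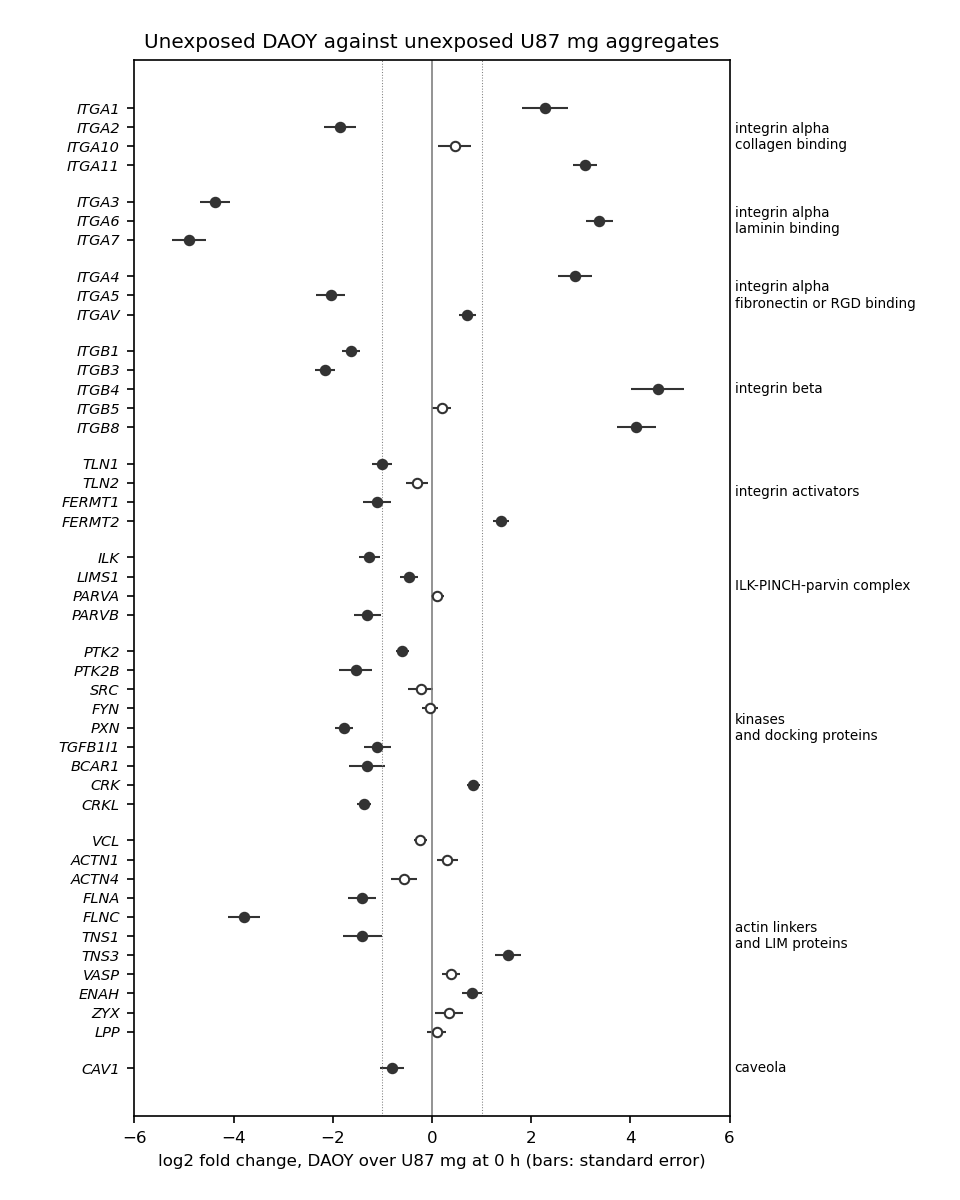
Log2 fold change of the 44 adhesion genes between unexposed DAOY and unexposed U87 mg aggregates (horizontal axis, positive where DAOY is higher, bars are standard errors from edgeR, 3 samples per group), with genes ordered by role (vertical axis); filled points passed an FDR of 0.05 and dotted lines mark a log2 fold change of 1 in each direction. The 3 genes of largest size are ITGA7 at -4.90, ITGB4 at 4.55 and ITGA3 at -4.37, and the ILK-PINCH-parvin genes that passed lie below 0.

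The cytoplasmic genes were mostly lower in DAOY where they differed. Of the 4 integrin activators, FERMT2 (kindlin-2) was higher in DAOY, with 85.8, 46.2 and 56.9 TPM in U87 mg and 187.6, 137.1 and 141.4 TPM in DAOY (log2 fold change 1.40 ± 0.16, adjusted p = 7.68e-07 in edgeR, Benjamini-Hochberg). TLN1 (talin-1) read 104.9, 137.8 and 176.5 TPM in U87 mg and 59.6, 101.8 and 97.4 TPM in DAOY. TLN1 and FERMT1 (kindlin-1) were lower in DAOY, at log2 fold changes of -1.01 ± 0.20 and -1.11 ± 0.28, and TLN2 did not pass at -0.31 ± 0.23. The FERMT1 call was lost in 2 of 15 alternatives, those by limma on TPM. FERMT1 lay at 0.70 to 1.79 TPM in the 0 h samples of both lines, so that FERMT2 was the main kindlin transcript of U87 mg and DAOY alike. In the complex of integrin-linked kinase, which ties integrin tails to actin through PINCH and parvin, 3 of 4 genes passed and all 3 were lower in DAOY. ILK itself read 83.7, 124.8 and 134.6 TPM in U87 mg and 31.9, 62.4 and 56.6 TPM in DAOY (log2 fold change -1.26 ± 0.22, adjusted p = 7.37e-05). PARVB and LIMS1 (PINCH-1) had log2 fold changes of -1.30 ± 0.27 and -0.47 ± 0.18, and PARVA of 0.11 ± 0.13 (adjusted p = 0.497). LIMS1 read 122.8, 106.6 and 108.7 TPM in U87 mg and 101.5, 62.5 and 77.5 TPM in DAOY, without overlap. The LIMS1 call (adjusted p = 0.0342) was lost in 6 of 16 alternatives, with adjusted p up to 0.173, DESeq2 among them.

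Of the 9 kinases and docking proteins 7 passed, 6 of them lower in DAOY. PTK2, the focal adhesion kinase, had a log2 fold change of -0.60 ± 0.13 and its relative PTK2B of -1.54 ± 0.33, while SRC and FYN did not pass, at -0.23 ± 0.25 and -0.05 ± 0.16. FYN had the highest summed TPM of this role in both lines, at 173.9 to 185.8 TPM in U87 mg and 163.7 to 196.1 TPM in DAOY, whereas over protein-coding transcripts at 0 h in DAOY it averaged 90.7 TPM and CRK 122.6 TPM. Among the docking proteins, PXN (paxillin) read 97.3, 134.0 and 162.3 TPM in U87 mg and 31.4, 48.6 and 41.1 TPM in DAOY (log2 fold change -1.77 ± 0.18, adjusted p = 1.52e-07 in edgeR, Benjamini-Hochberg). The paxillin relative TGFB1I1 (Hic-5) and BCAR1 (p130Cas) were also lower, at -1.10 ± 0.27 and -1.31 ± 0.36, with 0 h TPM ranges that overlapped between the lines. The BCAR1 call was lost in 4 of 16 alternatives and the TGFB1I1 call in 2 of 16, limma on TPM among them for each gene. The CRK family, SH2 and SH3 adaptors that bind phosphorylated p130Cas and paxillin, was split. CRKL read 54.2, 50.7 and 61.4 TPM in U87 mg and 18.4, 23.9 and 25.2 TPM in DAOY (log2 fold change -1.37 ± 0.13, adjusted p = 1.06e-07), and CRK read 66.6, 64.5 and 61.2 TPM in U87 mg and 121.9, 108.0 and 138.0 TPM in DAOY (log2 fold change 0.83 ± 0.13, adjusted p = 3.41e-05). CRK and CRKL lay close together in TPM in U87 mg, whereas in DAOY CRK stood well above CRKL in every sample.

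Of the 11 actin linkers and LIM proteins 5 passed. FLNC, the filamin of striated muscle, read 33.3, 84.3 and 80.2 TPM in U87 mg and 2.15, 6.36 and 6.74 TPM in DAOY (log2 fold change -3.79 ± 0.32, adjusted p = 2.16e-08 in edgeR, Benjamini-Hochberg). FLNA, the widespread filamin, read 181.7, 333.7 and 373.0 TPM in U87 mg and 72.7, 199.5 and 200.0 TPM in DAOY, and ENAH, which with VASP lengthens actin filaments, read 157.2, 146.3 and 100.3 TPM and 295.2, 278.1 and 286.9 TPM. FLNA and TNS1 were lower in DAOY as well, at -1.42 ± 0.28 and -1.40 ± 0.40, and TNS3 and ENAH were higher, at 1.53 ± 0.26 and 0.81 ± 0.19. Only 22.7% of the ENAH TPM in U87 mg and 18.3% in DAOY lay in protein-coding transcripts, and 48.6% and 36.2% of its estimated counts. These transcripts averaged 33.5 ± 4.7 and 43.1 ± 18.3 TPM at 0 h (SD, n = 3). VCL (vinculin), ACTN1 and ACTN4 (alpha-actinins), VASP, ZYX (zyxin) and LPP did not pass, with log2 fold changes from -0.57 (ACTN4) to 0.39 (VASP). CAV1, the caveolin that is found beside adhesions, was the most abundant plaque gene in both lines and lower in DAOY, with 586.1, 818.3 and 781.3 TPM in U87 mg and 537.8, 291.0 and 443.6 TPM in DAOY (log2 fold change -0.81 ± 0.24, adjusted p = 0.00771). Over all 9 samples of each line, whatever the time, the TPM ranges of 20 of the 44 genes (45.5%) did not overlap, against 36% of all genes tested. The 10 that were higher in DAOY were CRK, FERMT2, ITGA1, ITGA11, ITGA4, ITGA6, ITGAV, ITGB4, ITGB8 and TNS3, and the 10 that were lower were CRKL, FLNC, ILK, ITGA2, ITGA3, ITGA5, ITGA7, ITGB1, ITGB3 and PXN. At 0 h alone 29 genes (65.9%) did not overlap, against 56.8%.

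The promoters of 3 adhesion genes are shown, from the RefSeq table on GRCh38.p14. ITGA11 (higher in DAOY) and FLNC (higher in U87 mg) had the smallest p in each direction between the lines. CRKL was added because it also passed in DAOY after 8 h. Only genes with a single start in that table were considered. Of the 44 genes 35 had entries, 72 starts in all. ITGA11 lay at chr15:68432164-68432413 on the minus strand, FLNC at chr7:128830156-128830405 and CRKL at chr22:20917157-20917406 on the plus strand, each covering the bases before the start. Capitals mark matches on either strand to any of 5 motifs, with neighbouring matches run together: the GC box, GGGCGG, the motif of TEAD factors, GGAATG, the AP-1 motif, TGACTCA, the TATA box, spelled TATAAA, and the CCAAT box.
ITGA11: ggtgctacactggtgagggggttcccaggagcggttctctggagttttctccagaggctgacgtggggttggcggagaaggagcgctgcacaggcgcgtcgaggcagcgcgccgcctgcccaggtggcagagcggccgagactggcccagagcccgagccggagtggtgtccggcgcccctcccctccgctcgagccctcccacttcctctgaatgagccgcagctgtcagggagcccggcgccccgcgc
FLNC: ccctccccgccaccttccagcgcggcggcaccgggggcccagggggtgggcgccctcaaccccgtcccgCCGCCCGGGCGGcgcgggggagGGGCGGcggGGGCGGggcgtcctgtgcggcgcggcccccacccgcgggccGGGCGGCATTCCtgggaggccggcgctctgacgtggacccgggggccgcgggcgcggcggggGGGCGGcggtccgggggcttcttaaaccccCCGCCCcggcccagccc
CRKL: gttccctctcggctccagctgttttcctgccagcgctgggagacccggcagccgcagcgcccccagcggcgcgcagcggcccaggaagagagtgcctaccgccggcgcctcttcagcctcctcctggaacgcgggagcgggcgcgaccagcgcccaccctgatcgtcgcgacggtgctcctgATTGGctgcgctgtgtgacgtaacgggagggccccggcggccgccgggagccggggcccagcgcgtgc
The FLNC window held 7 GC boxes and 1 TEAD motif and had a GC content of 85.6%, the CRKL window held 1 CCAAT box, on the opposite strand, at 74.4% GC, and the ITGA11 window held none of the motifs at 71.2% GC. Over the windows of all 35097 starts the median GC content was 58.0%, and the GC box, the TEAD motif, the AP-1 motif, the TATA box and the CCAAT box stood in 42.6%, 11.9%, 4.2%, 10.7% and 32.0% of them. Over the 72 starts of adhesion genes the shares were 55.6%, 15.3%, 4.2%, 5.6% and 20.8%. A match is a description of letters and not of a bound factor.

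Few adhesion genes changed with time in the dcEF. In DAOY after 8 h, CRKL and ITGA7 rose, and these 2 of 44 genes (4.55%) were the only ones past an FDR of 0.05 in edgeR in any of the 4 field comparisons. The background at that time was 5.85% of the 15396 genes tested, so the adhesion genes did not exceed it, and ITGA7 alone also had a log2 fold change of 1 or more, against 3.13% of all genes. In U87 mg after 8 h 0 of 43 passed, against 1.72% of 14106 genes. After 2 h 0 of 43 passed in U87 mg and 0 of 44 in DAOY, where 0% of all genes passed in each line. At an unadjusted p under 0.05, 3 and 4 genes passed in U87 mg after 2 and 8 h, against 8.78% and 15.9% of all genes, and 0 and 6 in DAOY, against 2.75% and 22.7%. DESeq2 called 0, 2, 0 and 4 adhesion genes in U87 mg after 2 and 8 h and DAOY after 2 and 8 h, against 0.0284%, 4.2%, 0.0065% and 9.43% of all genes, and limma on log2(TPM + 1) called 0 in each, against 0.00709%, 0.0567%, 0% and 3.66%. The log2 fold changes of the adhesion genes ran from -0.68 to 0.44 and from -0.60 to 0.52 in U87 mg after 2 and 8 h, and from -0.37 to 0.90 and from -1.04 to 1.59 in DAOY.

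**Figure D3:**
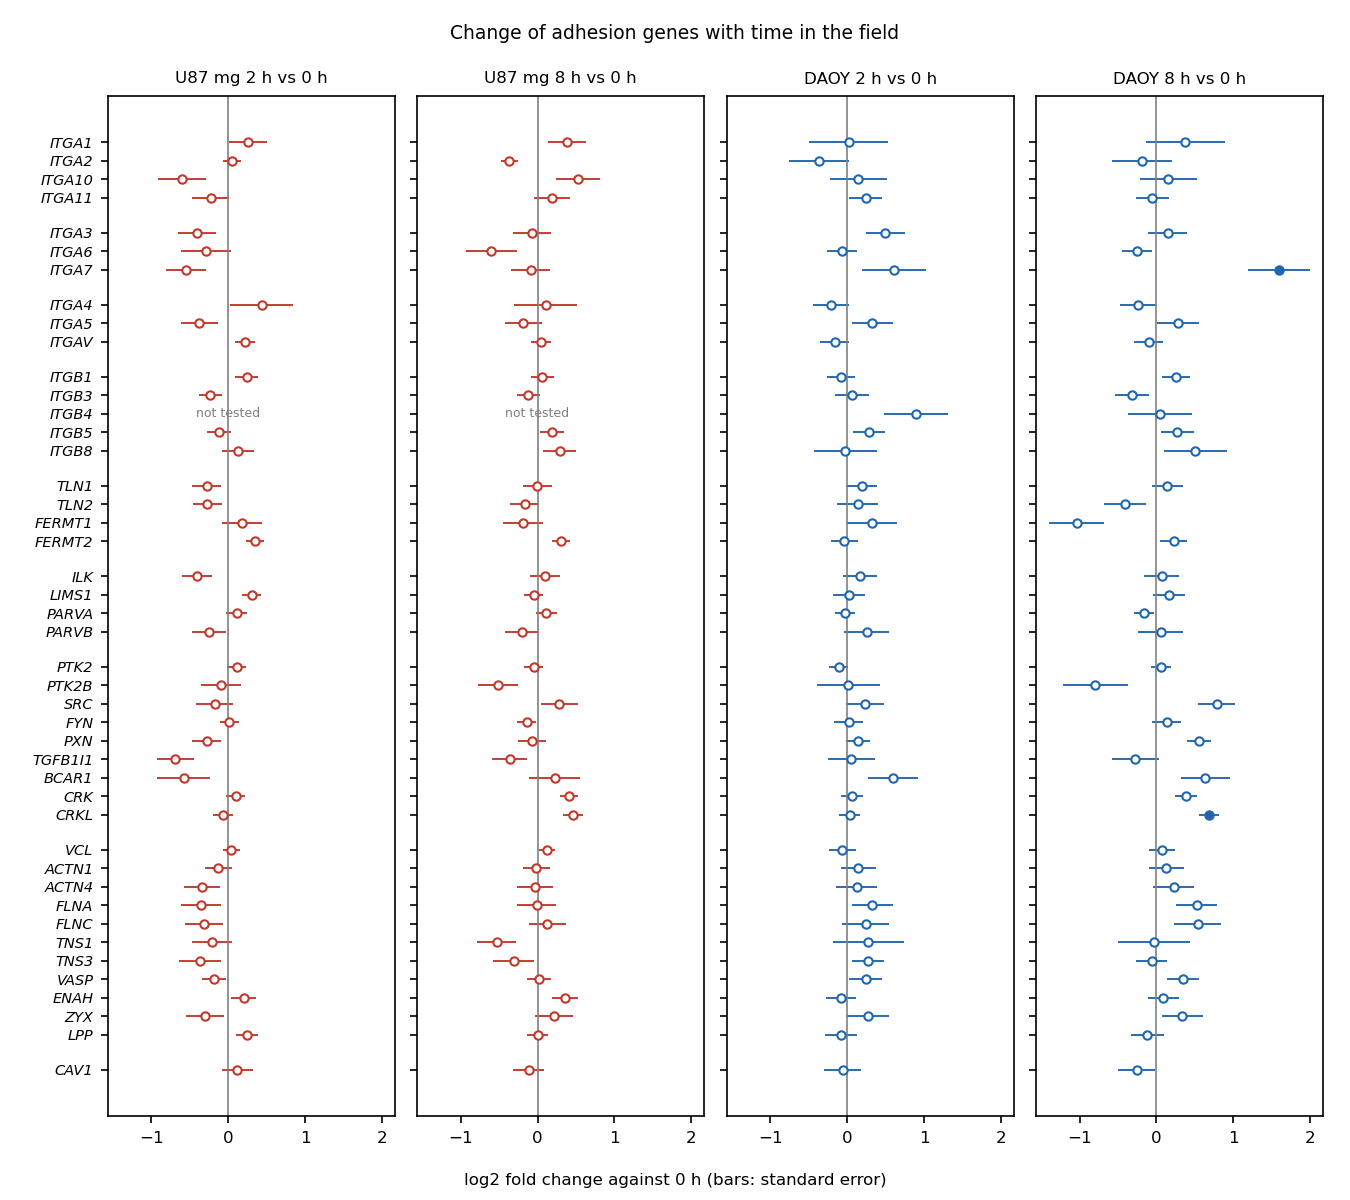
Log2 fold change against 0 h (horizontal axis, bars are standard errors from edgeR, 3 samples per group) of the adhesion genes in the order of the line comparison (vertical axis), for U87 mg (red) and DAOY (blue) after 2 and 8 h in the field. Filled points passed an FDR of 0.05, which holds for CRKL at 0.68 and ITGA7 at 1.59 in DAOY after 8 h, and ITGB4 was too low in U87 mg to be tested.

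CRKL was higher after 8 h in both lines, past the test in DAOY. In DAOY it read 18.4, 23.9 and 25.2 TPM at 0 h, 25.4, 21.7 and 24.3 TPM at 2 h and 32.0, 34.4 and 36.9 TPM at 8 h. Every 8 h sample lay above every earlier sample, and the log2 fold change at 8 h was 0.68 ± 0.14 (n = 3 per group, adjusted p = 0.0216 in edgeR, Benjamini-Hochberg). In U87 mg it read 54.2, 50.7 and 61.4 TPM at 0 h, 57.5, 50.8 and 52.0 TPM at 2 h and 77.9, 65.8 and 72.2 TPM at 8 h, again with every 8 h sample above all others. The log2 fold change in U87 mg was 0.46 ± 0.13, with an adjusted p of 0.106. The difference of the 8 h changes between the lines was tested across all 18 samples, and CRKL did not pass there (log2 value 0.23 ± 0.18, adjusted p = 0.796). Nearly all CRKL TPM belonged to a single coding transcript, ENST00000354336, and no annotated exon of another gene overlaps the locus at chr22:20917426-20953749 in GENCODE 29. The DAOY call held in 9 of 16 alternatives and was lost in 7, with adjusted p up to 0.0875, among them the leaving out of the 0 h sample numbered 2 or of the 8 h sample numbered 1 or 2.

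CRK, the second adaptor of that family, had the same order of samples without passing the test. In U87 mg it read 66.6, 64.5 and 61.2 TPM at 0 h and 76.5, 80.8 and 88.6 TPM at 8 h (log2 fold change 0.41 ± 0.12, adjusted p = 0.106), and in DAOY 121.9, 108.0 and 138.0 TPM at 0 h and 143.3, 149.9 and 155.1 TPM at 8 h (log2 fold change 0.38 ± 0.14, adjusted p = 0.139, both in edgeR, Benjamini-Hochberg). The 0 h and 8 h ranges did not overlap in either line. Its less abundant coding transcript ENST00000300574 averaged 21.1 ± 7.4 TPM at 0 h and 42.7 ± 6.3 TPM at 8 h in DAOY (SD, n = 3), while the main transcript ENST00000398970 averaged 96.7 ± 16.7 and 105.3 ± 12.2 TPM. How estimated counts are divided between transcripts of a gene that share exons is uncertain, and no test was made on single transcripts.

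ITGA7 in DAOY read 0.35, 3.79 and 1.86 TPM at 0 h, 1.10, 1.73 and 1.77 TPM at 2 h and 3.06, 5.75 and 2.86 TPM at 8 h. The 0 h and 8 h samples overlapped in TPM, and the log2 fold change of 1.59 ± 0.41 (adjusted p = 0.0475 in edgeR, Benjamini-Hochberg) rested on 6, 26 and 9 estimated counts against 46, 32 and 35. Protein-coding transcripts held 31.6% of the ITGA7 TPM and 69.9% of its estimated counts in DAOY, and averaged 0.58 ± 0.46 TPM at 0 h (SD, n = 3). Without the 0 h sample numbered 0, which held the lowest value, the adjusted p was above the threshold, and the call was kept in 6 of 15 alternatives, with adjusted p up to 0.324. Exons of ITGA7 overlap those of BLOC1S1, BLOC1S1-RDH5 and METTL7B on the opposite strand, and 22 of the 44 genes have such overlaps. Without a stated strand option such reads cannot be told apart. In U87 mg ITGA7 was 17.0 to 31.6 TPM at 0 h and 18.6 to 26.8 TPM at 8 h (log2 fold change -0.09 ± 0.25). The difference of the 8 h changes, DAOY minus U87 mg, was largest for this gene at a log2 value of 1.66 ± 0.45 but had an adjusted p of 0.23. In that comparison 0 of 44 adhesion genes passed, against 0.0121% of the 16482 genes tested, with 2 at an unadjusted p under 0.05 (8.88% of all genes), 1 by DESeq2 (0.632% of all genes) and 0 by limma on log2(TPM + 1) (0.0364%).

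**Figure D4:**
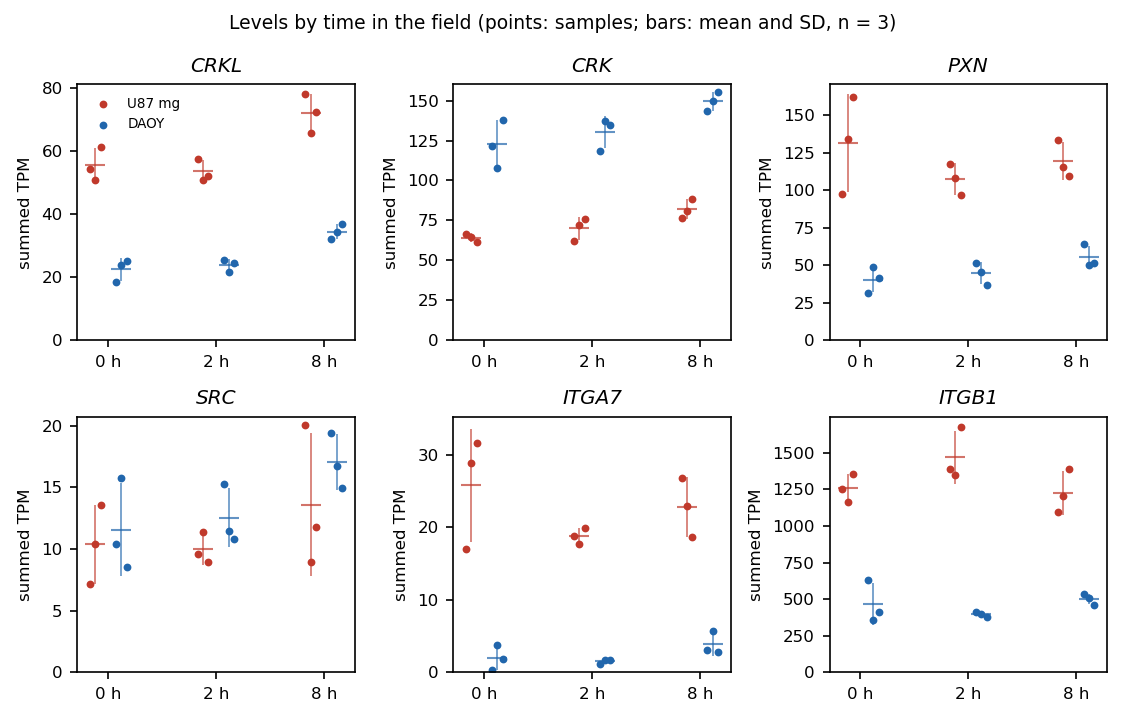
Summed TPM (vertical axes, from 0) of CRKL, CRK, PXN, SRC, ITGA7 and ITGB1 by time in the field (horizontal axes) in U87 mg (red) and DAOY (blue); points are the 3 samples of a group, numbered 0, 1 and 2 from left to right, and bars their mean and SD. CRKL at 8 h lies at 65.8 to 77.9 TPM in U87 mg and 32.0 to 36.9 TPM in DAOY, above every earlier sample of the same line.

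Several plaque genes came close to the threshold in DAOY after 8 h. PXN, which docks kinases and adaptors, read 31.4, 48.6 and 41.1 TPM at 0 h and 64.2, 49.9 and 51.5 TPM at 8 h (log2 fold change 0.55 ± 0.16, adjusted p = 0.0648 in edgeR, Benjamini-Hochberg). SRC, a tyrosine kinase of the plaque, read 10.4, 15.8 and 8.55 TPM and then 19.4, 16.7 and 14.9 TPM (log2 fold change 0.78 ± 0.24, adjusted p = 0.0869). DESeq2 called both. FERMT1 read 0.70, 1.32 and 0.91 TPM and then 0.35, 0.31 and 0.40 TPM, from 8 to 26 counts per sample (log2 fold change -1.04 ± 0.35, adjusted p = 0.111). In U87 mg after 8 h, ITGA2 read 86.3, 85.9 and 78.7 TPM at 0 h and 62.1, 70.4 and 54.2 TPM at 8 h, without overlap (log2 fold change -0.37 ± 0.11, adjusted p = 0.126). Non-overlapping ranges were no more frequent among adhesion genes than among all genes: 3 (6.98%) in U87 mg after 2 h against 15.3%, 6 (14%) after 8 h against 16%, 3 (6.82%) in DAOY after 2 h against 7.46%, and 6 (13.6%) after 8 h against 23.9%. At 8 h these were ITGA10, CRK and CRKL upward and ITGA2, LIMS1 and FYN downward in U87 mg, and PXN, CRK and CRKL upward and ITGA4, FERMT1 and PARVA downward in DAOY.

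Changes of the adhesion genes went with the base composition of their transcripts. The GC content of the most abundant transcript ran from 37.5% to 66.5% over the 44 genes, with the integrins ITGB8, ITGAV and ITGB1 at the low end and BCAR1, ITGB4 and the filamins at the high end. In the U87 mg 0 h sample numbered 0, 25 genes (56.8%) were the lowest of the 3 samples, against 41.4% of all genes, and in the DAOY 0 h sample numbered 0 it was 27 (61.4%) against 47.1%. The same held for samples of later times in both lines. In DAOY the 8 h sample numbered 1 was the lowest in 27 genes (61.4%) against 44%, and the 2 h sample numbered 2 in 22 (50%) against 33.3%. In U87 mg the 8 h sample numbered 2 was the lowest in 21 genes (47.7%) against 37.7%, and the 2 h sample numbered 2 in 19 (43.2%) against 36.8%. For these later samples no correlation with GC content was computed. The log2 ratio of the 0 h samples numbered 0 to the mean of the other 2 had a Pearson correlation with GC content of -0.70 in U87 mg and -0.71 in DAOY over the 44 genes. BCAR1, for example, at 66.5% GC, read 11.3 TPM in that U87 mg sample and 51.0 and 33.1 TPM in the others, while FERMT2, at 41.3% GC, read 85.8 TPM and 46.2 and 56.9 TPM. The log2 fold changes after 2 h also followed GC content, with r = -0.82 over 43 genes in U87 mg and r = 0.79 over 44 in DAOY, and those after 8 h less so (r = -0.14 and 0.28). Over all genes tested r was -0.60 and 0.35 after 2 h and -0.13 and 0.08 after 8 h, in U87 mg and DAOY. These are correlations across genes measured in the same libraries, given as descriptions. Between the lines at 0 h r was -0.37 over the adhesion genes and -0.03 over all genes, with a median GC content of 42.9% over the 11 genes higher and 57.0% over the 21 genes lower in DAOY.

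**Figure D5:**
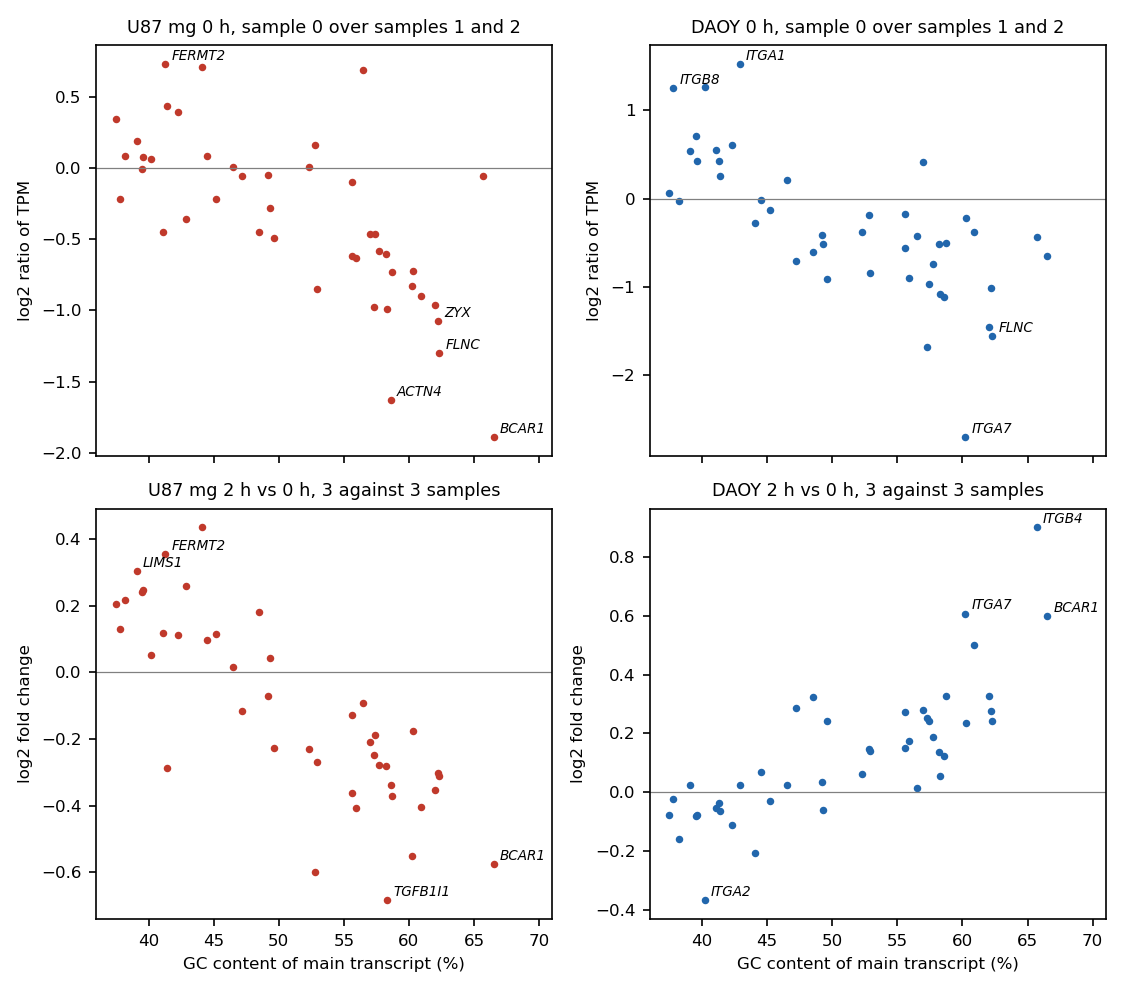
GC content of the most abundant transcript of each adhesion gene (horizontal axes, %) against, in the upper panels, the log2 ratio of TPM in the 0 h sample numbered 0 to the mean of the samples numbered 1 and 2 and, in the lower panels, the log2 fold change after 2 h in the field, for U87 mg (red, left) and DAOY (blue, right). The points fall with GC content in both upper panels (r = -0.70 and -0.71), fall in the lower left panel (r = -0.82) and rise in the lower right panel (r = 0.79).

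The comparisons were therefore also made without the 0 h sample numbered 0 and with a correction for GC content that was chosen after seeing the data. Without that sample, 11 of 43 adhesion genes (25.6%) passed in U87 mg after 2 h, against 8.38% of all genes. The 9 lower ones were ACTN4, BCAR1, FLNA, FLNC, ILK, ITGA3, ITGA7, TGFB1I1 and ZYX, with log2 fold changes from -0.94 (BCAR1) to -0.59 (ZYX) and GC contents from 55.9% to 66.5%, and the 2 higher ones were FERMT2 at 0.45 and LIMS1 at 0.43, with GC contents of 41.3% and 39.1%. With each sample's smooth trend on GC content removed in the fit of all samples of the line, 0 of 43 passed in U87 mg after 2 h and 0 of 44 in DAOY, against 0% of all genes, and the correlations with GC content fell to 0.04 and 0.23. Of the alternatives run for U87 mg after 2 h, the one without that sample was the only one in which an adhesion gene passed. The correction takes out any difference that follows GC content, whatever its source.

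With the same correction, more adhesion genes passed after 8 h, as did more genes altogether. In U87 mg 3 of 43 (6.98%) passed, against 5.78% of all genes: CRK at a log2 fold change of 0.39 ± 0.09 (adjusted p = 0.0296 in edgeR, Benjamini-Hochberg), CRKL at 0.47 ± 0.11 (adjusted p = 0.0343) and ITGA2 at -0.42 ± 0.09 (adjusted p = 0.0223). In DAOY 6 of 44 (13.6%) passed, all higher, against 14.6% of all genes and 6.64% higher. These were CRKL at 0.67 ± 0.11, CRK at 0.41 ± 0.10, SRC at 0.72 ± 0.14, BCAR1 at 0.51 ± 0.13, FLNA at 0.45 ± 0.10 and ITGA7 at 1.59 ± 0.33, with adjusted p from 0.00701 (CRKL) to 0.0334 (BCAR1). PXN had an adjusted p of 0.0647 there. CRK and CRKL passed in both lines, and SRC and BCAR1 had log2 fold changes of 0.35 ± 0.15 (adjusted p = 0.19) and 0.43 ± 0.15 (adjusted p = 0.115) in U87 mg. In the difference of the 8 h changes ITGA7 alone passed with the correction, at 1.57 ± 0.28 (adjusted p = 0.0454), against 0.449% of all genes. Between the lines at 0 h 35 of 44 (79.5%) passed, against 66.2% of all genes, with ACTN1 at 0.50, VASP at 0.59 and ZYX at 0.66 added on the higher side of DAOY.

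Leaving out the 0 h sample numbered 0 changed the 8 h calls as well. In U87 mg CRK alone passed (log2 fold change 0.47, adjusted p = 0.0482 in edgeR, Benjamini-Hochberg), against 5.2% of all genes. In DAOY 0 passed after 2 h, as with all samples. After 8 h 3 genes passed in DAOY, against 5.4%: CRKL at 0.64, ITGB1 at 0.51 and ITGB8 at 1.23. The last 2 turned on that sample, in which ITGB1 read 628.6 TPM against 361.0 and 410.0 TPM and ITGB8 read 77.5 TPM against 33.9 and 31.0 TPM in the other 0 h samples. At 8 h ITGB1 read 534.4, 508.0 and 461.5 TPM and ITGB8 78.8, 64.0 and 64.7 TPM in DAOY. With all samples the log2 fold changes were 0.26 ± 0.19 and 0.50 ± 0.41 and neither passed. CRKL was the adhesion gene called in DAOY after 8 h with all samples, without this sample and with the correction for GC content. It did not hold against every sample left out: in DAOY after 8 h, 0 adhesion genes passed without the 8 h sample numbered 1, where 0.197% of all genes passed, without the 8 h sample numbered 2 (0.503%) or without the 0 h sample numbered 2 (2.04%), and 1 passed without the 8 h sample numbered 0 (2.43%).

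Other genes of the pathway, in lists outside the 44, were counted in the same way. Of 33 other focal adhesion genes 32 were tested between the lines at 0 h and 27 passed, 9 higher and 18 lower in DAOY, where 60.7% of all genes passed. Among them NEDD9, the p130Cas relative HEF1, read 0.129, 0.133 and 0.127 TPM in U87 mg and 24.8, 28.3 and 26.6 TPM in DAOY, the reverse of BCAR1. The calpain CAPN2, which cuts talin, read 544.1, 554.7 and 580.9 TPM in U87 mg and 73.8, 59.7 and 98.5 TPM in DAOY. ITGB1BP1 (ICAP-1), which holds the ITGB1 tail inactive, read 437.0, 402.1 and 420.9 TPM in U87 mg and 88.3, 102.5 and 96.7 TPM in DAOY, lower like ITGB1 itself. Of 11 other integrin subunits 5 were tested and all 5 passed, among them ITGA8 (0, 0 and 0.063 TPM in U87 mg and 12.2, 12.7 and 4.12 TPM in DAOY) and ITGB6 (0.421, 0.477 and 1.21 TPM and 12.1, 8.44 and 4.75 TPM) on the higher side and ITGAX (4.46, 7.24 and 6.77 TPM and 0.353, 0.39 and 1.13 TPM) on the lower.

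Of 26 integrin ligands 24 were tested and 16 passed, 11 higher and 5 lower in DAOY, again beside 60.7% of all genes. COL4A1, a chain of the basement membrane collagen that ITGA1 binds, read 0, 0.297 and 0 TPM in U87 mg and 59.1, 80.7 and 77.7 TPM in DAOY. VCAM1, a ligand of ITGA4, read 0.061, 0.169 and 0.128 TPM in U87 mg and 323.9, 221.6 and 372.2 TPM in DAOY, and the laminin chain LAMA4 read 6.86, 11.3 and 18.2 TPM and 305.7, 258.6 and 308.1 TPM. SPP1 (osteopontin), a ligand of ITGAV with ITGB3, went the other way, with 389.0, 410.2 and 320.7 TPM in U87 mg and 7.74, 2.25 and 3.79 TPM in DAOY.

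With time in the field, 0 genes of the 3 lists passed in U87 mg after 2 or 8 h or in DAOY after 2 h in edgeR. In DAOY after 8 h 3 of 32 other focal adhesion genes and 4 of 24 ligands passed, and 0 of 4 other integrin subunits, where 5.85% of all genes passed. AJUBA, a LIM protein of adhesions and junctions, rose from 12.6, 13.7 and 14.2 TPM at 0 h to 54.9, 44 and 37.7 TPM at 8 h (log2 fold change 1.48 ± 0.15, adjusted p = 0.00428 in edgeR, Benjamini-Hochberg). PALLD (palladin), an actin crosslinker, rose by 0.98 ± 0.18 on the log2 scale (adjusted p = 0.0177), and ARHGEF6, an exchange factor for Rac, fell by 0.75 ± 0.15 (adjusted p = 0.0239). Among the ligands the matricellular CYR61 rose from 36.9, 26.8 and 30.4 TPM to 120.9, 164.3 and 81.1 TPM (log2 fold change 2.02 ± 0.29, adjusted p = 0.00884) while its relative CTGF fell from 176.8, 121.0 and 105.4 TPM to 57.9, 79.5 and 45.4 TPM (log2 fold change -1.10 ± 0.28, adjusted p = 0.047). VCAM1 fell as well, at -1.35 ± 0.29 (adjusted p = 0.0263), and the laminin chain LAMB1 rose by 0.67 ± 0.13 (adjusted p = 0.0222). In DAOY, CYR61, LAMB1, AJUBA and PALLD were higher in every 8 h sample than in every 0 h sample. ARHGEF6, CTGF and VCAM1 were lower in every 8 h sample. Such ranges without overlap were found in 23.9% of all genes tested and in 6 of the 44, CRKL among them. These list genes had already passed the test in the same samples, so the order of samples adds no separate support. Their calls were not repeated with a sample left out.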

How the data were processed

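RNA-seq of 18 samples was used, 3 for each line and time. Libraries were made with a stranded poly(A) kit. The authors deposited a table of estimated counts and of TPM per transcript in each sample, made with kallisto 0.43.0 on GENCODE 24 transcripts, and with p-values, q-values and log2 fold changes of sleuth 0.28.1 comparisons in R 3.2.1, which were not used (versions per the submitters' processing notes). Whether the strand option was used is not given in the sources used here. The study describes the samples of a group as biological replicates, each pooled from technical ones and kept for its quality control, and what separated them (culture or day) is not given in the sources used here, so p-values measure the spread between these samples.

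Estimated counts and TPM were summed over the transcripts of each gene name. Summed counts were rounded, filtered with filterByExpr, scaled by TMM and tested with glmQLFit and glmQLFTest (edgeR 4.0.16, R 4.3.3) at an FDR of 0.05, Benjamini-Hochberg over all genes tested. The 9 samples of a line entered each field comparison, and all 18 the comparison of the lines and the difference of the 8 h changes. Fold changes are log2 with standard errors. Summed TPM includes non-coding transcripts, 225 of the 492 used here. DESeq2 1.42.0, limma 3.58.1 on log2(TPM + 1) and log2(TPM + 0.1), RLE scaling, no filter, a minimum of 10 counts in all samples, the replicate number as a block, other sets of samples in the fit and each sample left out in turn were the alternatives. The ones added after seeing the data were the 0 h samples numbered 0 of both lines left out together, and an offset per sample from a lowess curve (span 0.3) of log2 CPM, relative to the gene's mean, on the GC content of the gene's most abundant transcript, which GENCODE 29 gave for 99.9% of the genes tested. The edgeR, DESeq2, limma and GC steps were tested on simulated data. Intervals of counts cover counting error only.

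All 44 genes were counted by role. Values in every sample were given for genes that passed in a field comparison, the 12 of largest change between the lines, the most abundant of each role and those near a threshold. The 44 genes, the further lists and the rule were chosen with earlier results of these data known. Loci are from GENCODE 29 on GRCh38, and promoters from RefSeq on GRCh38.p14.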

Additional observations from a re-analysis of the deposited data

How the results depend on the processing

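Between the lines at 0 h, 29 to 35 adhesion genes passed under every setting of the test other than the added threshold on fold change (26), 31 to 33 with a sample left out and 34 without the samples numbered 0 of both lines. The field comparisons were less stable. In U87 mg after 2 h the count was 0 under every setting other than leaving out a sample, where it ran from 0 to 11. In U87 mg after 8 h it was 2 by DESeq2, 3 with the GC correction and from 0 to 1 with a sample left out. In DAOY after 2 h it was 0 throughout. In DAOY after 8 h the count of 2 became 4 by DESeq2, 6 with the GC correction, 0 by limma with either pseudocount on the TPM, 1 with at least 10 counts in every sample, 1 with a threshold on fold change and 0 with only the 6 samples compared, and ran from 0 to 3 with a sample left out. With the replicate number as a block it was 0, and the block changed no other count of calls by over 1.5 times. Same-numbered samples did not all deviate together in the groups compared (correlations from -0.18 to 0.28 between 0 h and a later time of a line, and 0.01 to 0.41 between the lines at 0 h), so the numbers were not taken to pair samples. Between 2 and 8 h, which were not compared, they ran from 0.12 to 0.21 in U87 mg, where every sample correlated best with its own number, and from 0.07 to 0.40 in DAOY. The difference of the 8 h changes counted 1 gene by DESeq2, 1 without a filter and 1 with the GC correction. FERMT2 in U87 mg after 8 h reversed from 0.30 to -0.017 by limma on either pseudocount, where TPM and not counts were fitted. Over the values of single genes, pooled over the field and line comparisons, 707 kept their direction and side of the threshold, 30 lost and 17 gained a call, and 2 changed sign. The 2 field calls were less stable than this total: in DAOY after 8 h CRKL was lost in 7 of 16 alternatives and ITGA7 in 9 of 15. Apart from the GC correction, whose construction removes trends with base composition, and the settings with fewer samples, the cause of these differences was not tested. ITGA7 and PTK2B in DAOY, ITGA4, ITGA6 and ITGB4 in U87 mg, and ITGA10 and FERMT1 are limited by depth. They lay at under 50 counts a sample in most of these samples.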
